A study of Mus musculus with 24 samples.

Results

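The integrated stress response is the route by which a cell short of amino acids, or with unfolded protein in its endoplasmic reticulum (ER), slows translation and favours the translation of the transcription factor ATF4. Kinases that sense uncharged transfer RNA (GCN2) or ER stress (PERK) phosphorylate the initiation factor eIF2, and ATF4 then binds C/EBP-ATF response elements near genes of amino acid synthesis, transfer RNA charging, glutathione turnover and feedback on eIF2 itself. The liver is the organ that handles most dietary amino acids and secretes large amounts of protein, and it uses this route in both situations. The 10 genes described here were the transcription factors Atf4, Atf5 and Ddit3 (which encodes CHOP), the feedback genes Trib3 and Ppp1r15a, the amino acid synthesis genes Asns, Psat1 and Phgdh, and Chac1 and Sesn2. They were taken by name, as the probes whose gene name on the array matched one of the 10, which gave 16 probes of 56605 and 10 gene names of 37074. The 10 genes were chosen with earlier results of these data known, so their counts beside all genes are not independent support.

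Liver RNA came from 24 male C57bl/6J mice (F3 generation) of 2 lineages, with 1 array in 1 colour per mouse. The reference group (STD_Cont, n = 9) was of the control lineage, bred on high-oleic sunflower oil, and was fed a low-fat diet. The HFoleic group (HFD_Cont, n = 8) was of the same lineage but ate an obesogenic diet, rich in fat and in sucrose. The HFepa group (HFD_O3, n = 7) ate that diet too and came from the lineage bred on fish oil, mainly eicosapentaenoic acid (EPA), an n-3 fatty acid. The EPA lineage was measured on the high-fat diet only, so HFepa against reference sets diet and lineage together, and the effects of these cannot be told apart there. All mice were killed during a fast, and their ages are not given in the sources used here.

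On the arrays, 50.9% to 60.8% of the probes were well above background, and 0 spots were saturated. The arrays lay on 3 slides of 8, and each slide held mice of all 3 groups. All 7 hepatocyte markers found by name on the array were detected, and none was called between groups on its brightest probe (1 of the 2 Ttr probes was called in HFoleic). Markers of other cells were called in HFoleic against reference on 3 genes. They were the stellate cell gene Lrat (0.56 on the log2 scale, limma adjusted p 0.00150), the bile duct gene Sox9 (-0.65, 0.0279) and Cidec of the adipocyte list (-1.72, 0.0243). These were 1 of 7 tested stellate, 1 of 4 bile duct and 1 of 4 adipocyte markers, beside 8.07% of all genes called. Of the 2 tested Sox9 probes, 1 was called. The log2 of the summed signal of the adipocyte markers ran from 12.02 to 14.59 in reference, 10.76 to 12.91 in HFoleic and 11.33 to 13.24 in HFepa. Cidec weighed on this sum to a varying degree. Cidec alone was at 14.05 where the sum was 14.13 (reference mouse 1) and at 9.45 where it was 10.76 (HFoleic mouse 8). In HFoleic Plin1 (-0.01) and Lep (0.07) of the same list were not called, and Adipoq, a defining marker, did not pass the filter on dim probes. Fabp4, the other tested marker of the list, was lower and not called, and the list median was -0.30. The sum is therefore not read as a measure of adipocytes. The reference mouse numbered 5 stood apart, with the highest summed signal of its group for stellate cell markers (15.74 on the log2 scale, against 14.00 to 14.92 in the other reference mice), bile duct markers (13.40, against 10.45 to 11.41) and adipocyte markers (14.59). The part of these markers in the results was not tested, but without that mouse Chac1 (1.35, limma adjusted p 0.00413), Asns (-1.57, 0.0165) and Atf5 (-0.32, 0.0300) were called in HFoleic as with it. In whole liver, fewer cells of a type and less RNA per cell cannot be told apart. Of the 16 probes, 14 passed the filter on dim probes and were tested. Signals are log2 values after quantile normalization, each gene is read from its brightest tested probe, and a gene is called when its adjusted p from limma over all 30003 tested probes is under 0.05.

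Sequences at the start of 3 genes are shown because they hold the letters that ATF4 is known to bind with its C/EBP partners. The sequences are from RefSeq, build GRCm38.p6, and all 10 genes had an entry. The element was searched as TTGCATCA on both strands, from 250 bases before to 50 bases after each start, and then more loosely as TGATGNAA on both strands, which includes the first form. Capitals mark the match. The first sequence is chr2:119350992-119351241 on the plus strand, the second chr6:7693210-7693459 on the minus strand, and the third chr2:152344028-152344057 on the minus strand, just after the gene start.
Chac1: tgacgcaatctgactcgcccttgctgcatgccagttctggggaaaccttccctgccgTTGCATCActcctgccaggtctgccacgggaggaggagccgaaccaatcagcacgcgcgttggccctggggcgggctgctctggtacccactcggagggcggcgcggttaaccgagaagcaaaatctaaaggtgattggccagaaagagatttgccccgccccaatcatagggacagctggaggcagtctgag
Asns: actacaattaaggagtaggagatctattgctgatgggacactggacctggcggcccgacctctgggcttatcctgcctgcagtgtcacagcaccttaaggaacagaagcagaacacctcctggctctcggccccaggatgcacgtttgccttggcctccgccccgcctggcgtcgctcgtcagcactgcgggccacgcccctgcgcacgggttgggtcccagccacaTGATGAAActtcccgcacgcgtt
Trib3: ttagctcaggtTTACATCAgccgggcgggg

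The strict form was found in Chac1 alone of the 10 genes, starting 193 bases before its start, and in 1.03% of the 27025 genes of the table. The looser form was found in 3 of the 10 genes and in 4.51% of all genes. The 10 genes had 12 promoters in the table. In Asns it began 23 bases before the start and in Trib3 at base 15 after it. A match is a description of letters in this window and does not show binding, and these arrays measured neither ATF4 protein nor the phosphorylation of eIF2. The windows of Chac1 and Asns are printed also because these were the members with the largest differences between groups, and those differences had opposite signs.

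The comparison of HFoleic with reference asks what the obesogenic diet changed within the oleic lineage. Of the 10 genes, 1 was called higher in HFoleic (Chac1), 2 were called lower (Asns and Atf5) and 7 were not called. Over all genes, read from their brightest probes, 8.07% were called, 4.52% higher and 3.55% lower. The median change of the 10 genes was -0.16, beside -0.01 over all genes. Over probes, 4 of the 14 tested were called, beside 7.23% of all tested probes, 1 of them higher (beside 4.05%) and 3 lower (beside 3.19%). The 10 genes did not move in 1 direction: 3 had a higher and 7 a lower mean in HFoleic than in reference.

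**Figure D1:**
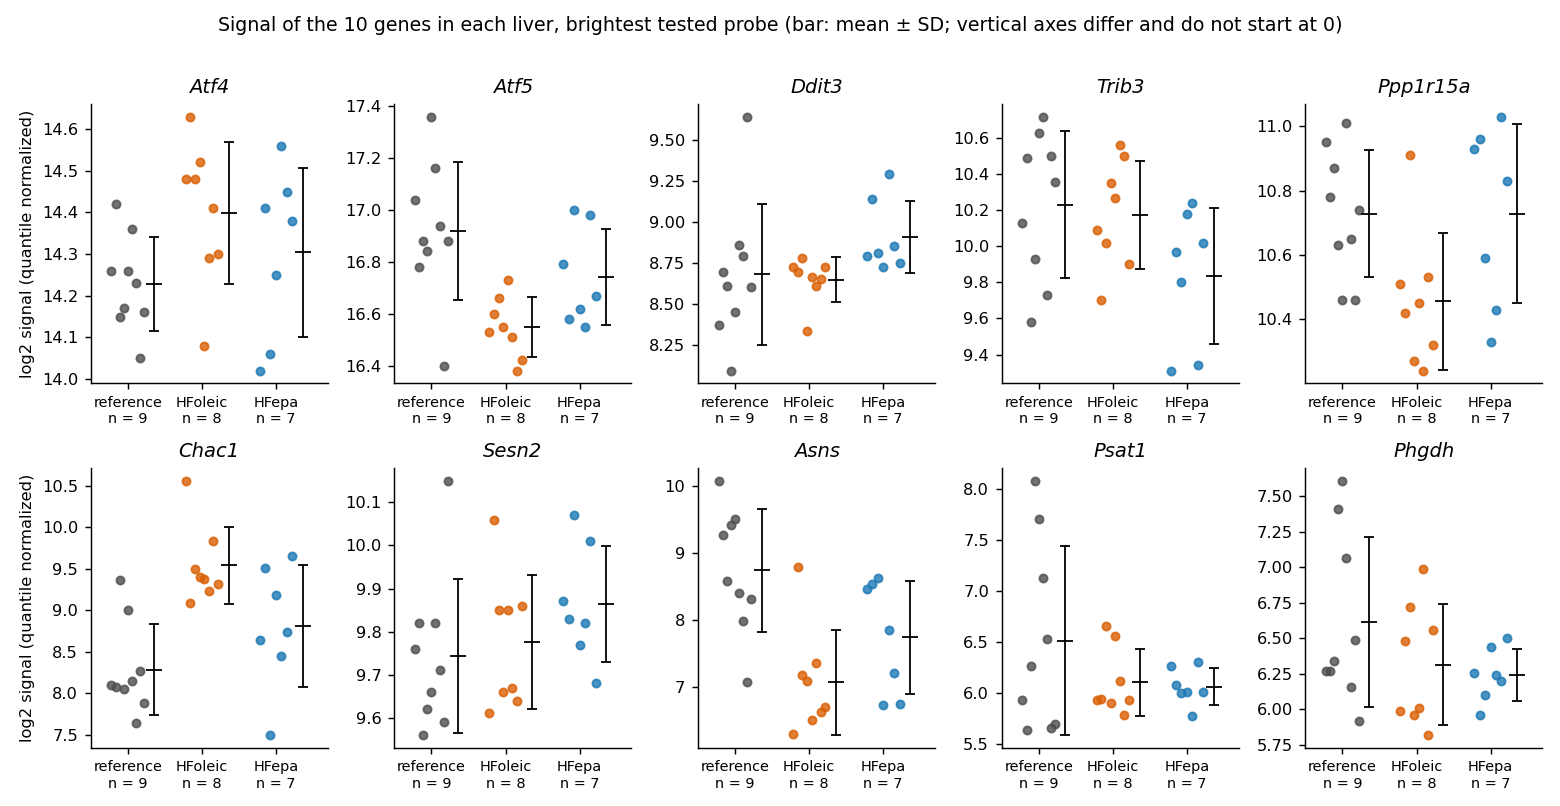
Log2 signal (vertical axes, quantile normalized, each with its own range) of the 10 genes in every liver, with 9 reference, 8 HFoleic and 7 HFepa mice; points are mice and the bar beside them is the mean ± SD. Chac1 was higher and Asns and Atf5 were lower in HFoleic than in reference, and the ranges of the groups overlapped for each gene.

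Chac1 encodes an enzyme that cleaves glutathione within the cell. In the reference mice its log2 signal ran from 7.65 over a median of 8.10 to 9.37, in the HFoleic mice from 9.09 over 9.39 to 10.56, and in the HFepa mice from 7.50 over 8.74 to 9.66. All 8 HFoleic mice lay above the reference mean and 5 of them above every reference mouse, while the HFepa mice spread over the range of both groups. The rise in HFoleic was 1.26 ± 0.26 (SE) log2 units, 2.39-fold, with a limma adjusted p of 0.00535. Within slides it was 1.48, 1.30 and 0.92, and within the 2 rows of the slides 1.21 and 1.28, so that each of these subsets had the same sign. The order of the group means was reference, HFepa, HFoleic. Neither neighbouring step passed the test. HFepa was 0.53 above reference (95% interval -0.04 to 1.09, adjusted p 0.416) and 0.73 below HFoleic (interval of HFepa minus HFoleic -1.31 to -0.15, adjusted p 0.387). The step between the 2 high-fat groups was uneven across slides, with differences of -1.60, -0.48 and -0.07. HFepa minus reference was -0.12, 0.82 and 0.86 within slides, so its sign was not the same on all of them.

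Asns encodes asparagine synthetase, which makes asparagine from aspartate and glutamine, and is a classical target of amino acid shortage. Its log2 signal ran from 7.08 over 8.58 to 10.07 in the reference mice, from 6.30 over 6.90 to 8.79 in the HFoleic mice, and from 6.74 over 7.85 to 8.63 in the HFepa mice. In HFoleic, 7 of 8 mice were below the reference mean and 4 were below every reference mouse, and the exception was the mouse numbered 2, at 8.79. Asns fell by 1.67 ± 0.38 (SE) log2 units in HFoleic, 3.17-fold, with a limma adjusted p of 0.00882. Within slides the difference was -1.50, -2.33 and -1.33, and within rows -1.62 and -1.68. The order of the group means was HFoleic, HFepa, reference, the reverse of that of Chac1, and again neither neighbouring step passed. All 7 HFepa mice were below the reference mean, by 0.99 on average (95% interval of the difference -1.82 to -0.17, adjusted p 0.262). HFepa was 0.67 above HFoleic (interval -0.17 to 1.52, adjusted p 0.613). Within slides that step was 0.50, 1.68 and -0.28, so it too did not keep its sign.

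A second Asns probe spans an exon junction, since its 60 bases cover 146 bases of the mm9 genome (chr6:7626110-7626255, minus strand). It is shown because it reads another stretch of the same transcript than the called probe (chr6:7625171-7625228, minus strand).
Asns, second probe: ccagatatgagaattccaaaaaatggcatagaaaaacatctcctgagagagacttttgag
This probe was dim and did not pass the filter, being well above background on 5 of 9 reference, 0 of 8 HFoleic and 2 of 7 HFepa arrays. With HFoleic values raised to the lowest signal well above background on each array, reference was 1.51-fold higher than HFoleic. With HFepa values raised in this way it was 1.16-fold higher than HFepa. The reference values were not raised and include arrays on which the probe was not well above background, so these are not lower bounds. In a fit without the filter the HFoleic difference of this probe was -0.63, with a limma adjusted p of 0.117, so it had the same sign as the first probe but was not called.

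**Figure D2:**
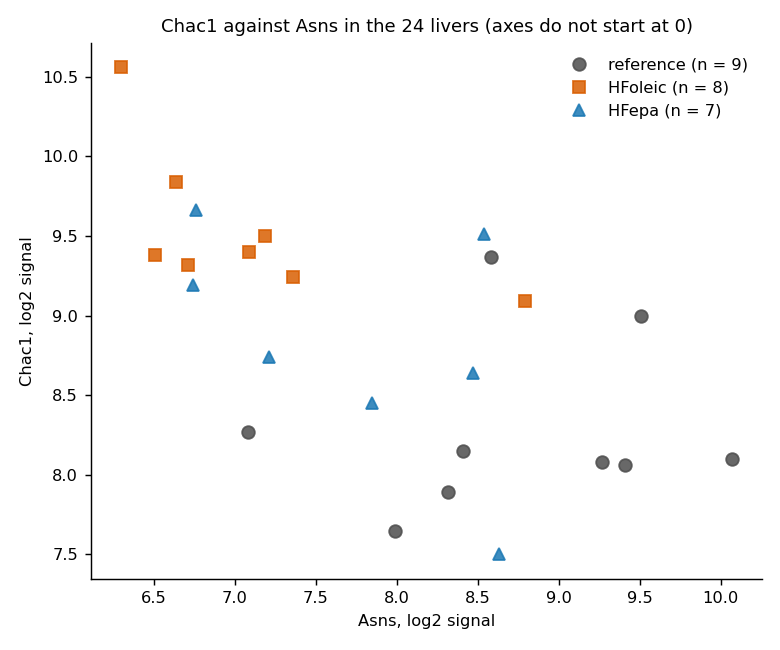
Log2 signal of Chac1 (vertical axis) against that of Asns (horizontal axis) in each of the 24 livers, with 1 symbol per mouse and group. The HFoleic mice lie at high Chac1 (9.09 to 10.56), 7 of 8 of them with Asns at 7.36 or lower, and the reference mice reach the highest Asns (10.07).

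The transcription factors of the group differed in their behaviour. Atf4 itself was not called. Its log2 signal was 14.23 ± 0.11 in reference (SD, n = 9), 14.40 ± 0.17 in HFoleic (n = 8) and 14.30 ± 0.20 in HFepa (n = 7). The HFoleic difference of 0.17 had a limma adjusted p of 0.219, and a second Atf4 probe gave 0.05. The output of ATF4 is set largely by translation, which RNA levels do not show.

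Atf5, a relative of ATF4 whose translation also responds to eIF2 phosphorylation and which is abundant in liver, was lower in HFoleic on both of its probes. On the brighter probe the log2 signal ran from 16.40 over 16.88 to 17.36 in reference, from 16.38 over 16.54 to 16.73 in HFoleic and from 16.55 over 16.67 to 17.00 in HFepa. All 8 HFoleic mice were below the reference mean, but only 1 was below the lowest reference mouse, numbered 8, so the ranges overlapped through that mouse. Atf5 fell by 0.37 ± 0.10 (SE) log2 units, with a limma adjusted p of 0.0183, and by 0.45 ± 0.12 on the second probe (0.0226). The call on the second probe was lost without the HFoleic mouse numbered 8 (-0.42, adjusted p 0.0502). With the unmoderated test that the study's methods name, run on the same values, the call on the brighter probe was lost (adjusted p 0.0516). The second Atf5 probe lost its call under that test as well, since only 2 probes of the 10 genes, those of Chac1 and Asns, were called. HFepa differed from reference by -0.18 on each probe and was not called.

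Ddit3, the stress-induced partner of ATF4 that promotes cell death when stress persists, differed between its probes. Its brighter probe was designed on the Ensembl transcript ENSMUST00000134686 (mm9 chr10:126731579-126731638, plus strand). Its dimmer probe was designed on NM_007837 and covers 304 bases of the genome (mm9 chr10:126732518-126732821, plus strand), so that it spans an exon junction of the reference transcript. The dimmer probe is shown because the HFoleic difference is seen on it and not on the other.
Ddit3, junction probe: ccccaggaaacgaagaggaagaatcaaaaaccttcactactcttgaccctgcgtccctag
On the brighter probe the HFoleic difference was -0.03 (limma adjusted p 0.930), and on the junction probe it was 0.36 ± 0.12 (SE, adjusted p 0.0593). On the junction probe the log2 signal ran from 7.22 over 7.81 to 8.15 in reference, from 7.75 over 8.11 to 8.58 in HFoleic and from 7.80 over 8.14 to 8.34 in HFepa. All 8 HFoleic and all 7 HFepa mice were above the reference mean, and the HFepa difference was 0.42 ± 0.12 (SE, adjusted p 0.108). The highest reference mouse on both probes was the one numbered 8 (9.64 and 8.15). Without it the junction probe was called higher in HFoleic (0.41, adjusted p 0.0210) and in HFepa (0.47, adjusted p 0.0419). In HFoleic it was also called without the HFoleic mouse numbered 6 (0.40, adjusted p 0.0474) or 8 (0.41, adjusted p 0.0399). The reference mouse numbered 8 also had the lowest Asns and Atf5 of its group, at 7.08 and 16.40.

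**Figure D3:**
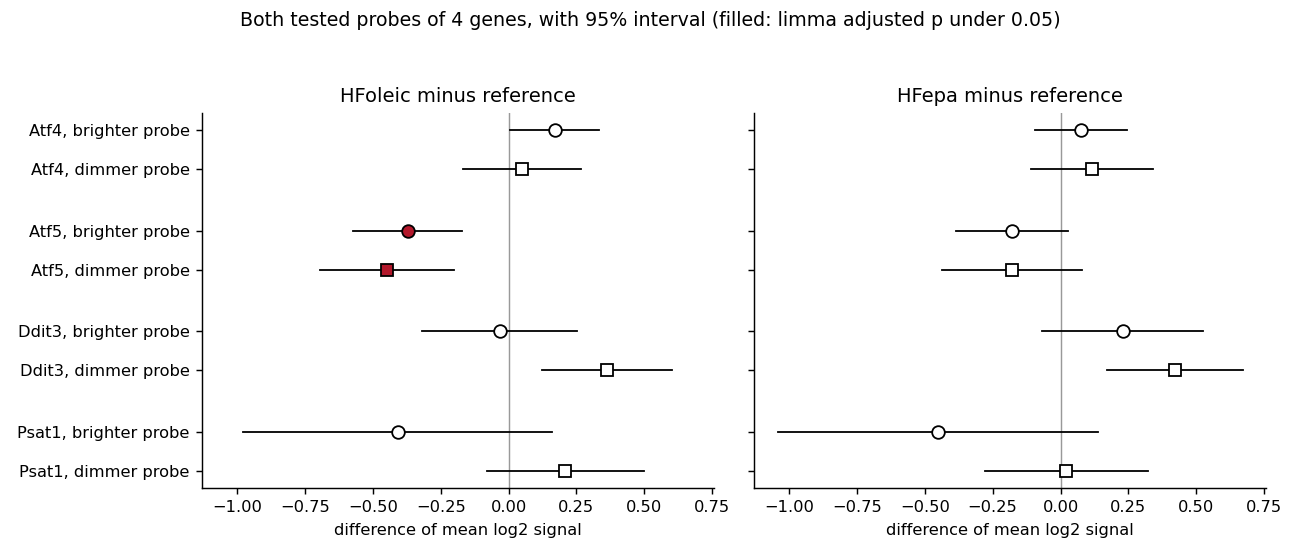
Difference of mean log2 signal (horizontal axis) from the reference group, with its 95% interval, for both tested probes of Atf4, Atf5, Ddit3 and Psat1 in HFoleic (left) and HFepa (right); circles are the brighter and squares the dimmer probe, and filled symbols have a limma adjusted p under 0.05. Both Atf5 probes were called in HFoleic, while the probes of Ddit3 (-0.03 and 0.36) and of Psat1 (-0.41 and 0.21) had opposite signs there.

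The feedback genes were not called. Trib3 encodes a pseudokinase that binds and restrains ATF4 and CHOP, and its log2 signal was 10.23 ± 0.41 in reference (SD, n = 9), 10.17 ± 0.30 in HFoleic (n = 8) and 9.84 ± 0.38 in HFepa (n = 7). Its largest difference was that of HFepa from reference, -0.39 (limma adjusted p 0.319), with 6 of 7 mice below the reference mean. Ppp1r15a encodes GADD34, which directs a phosphatase to eIF2 and so ends the response. It was lower by 0.27 in HFoleic (limma adjusted p 0.135), with 7 of 8 mice below the reference mean and the exception, the mouse numbered 3, at 10.91. Without that mouse it was called, at -0.34 (adjusted p 0.0492). That was the only call among the 24 fits with 1 mouse left out, where the limma adjusted p reached 0.226. None of the 10 alternatives in processing called it (lowest adjusted p 0.0952). HFepa and reference had nearly the same mean (10.73 ± 0.28, n = 7, and 10.73 ± 0.20, SD, n = 9).

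Phgdh and Psat1 catalyse the first and second steps of serine synthesis from glycolysis. Phgdh was well above background on all 24 arrays, and Psat1 on 7 of 9 reference, 7 of 8 HFoleic and 5 of 7 HFepa arrays. In HFoleic, Phgdh differed by -0.30 (limma adjusted p 0.444) and Psat1 by -0.41 (adjusted p 0.431), and in HFepa by -0.37 and -0.45 (adjusted p 0.479 and 0.531). The spread was largest in the reference group, where the mice numbered 4, 5 and 6 had the highest signals of both genes (Psat1 8.08, 7.71 and 7.13; Phgdh 7.41, 7.61 and 7.07) and every other reference mouse was at or below 6.53. The mice numbered 4 and 5 also had the highest stellate cell marker sums of the reference group, 14.92 and 15.74, and the part of this in the Psat1 and Phgdh values was not tested. A second Psat1 probe did not share the direction (0.21 in HFoleic), and the last probe was not well above background on any array.

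Sesn2 encodes a leucine-binding sestrin that restrains the growth kinase complex mTORC1. Its log2 signal was 9.74 ± 0.18 in reference (SD, n = 9), 9.77 ± 0.16 in HFoleic (n = 8) and 9.86 ± 0.13 in HFepa (n = 7). It was not called, and its HFoleic difference was 0.03 (95% interval -0.13 to 0.19), the narrowest interval among the 10 genes in that comparison.

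**Figure D4:**
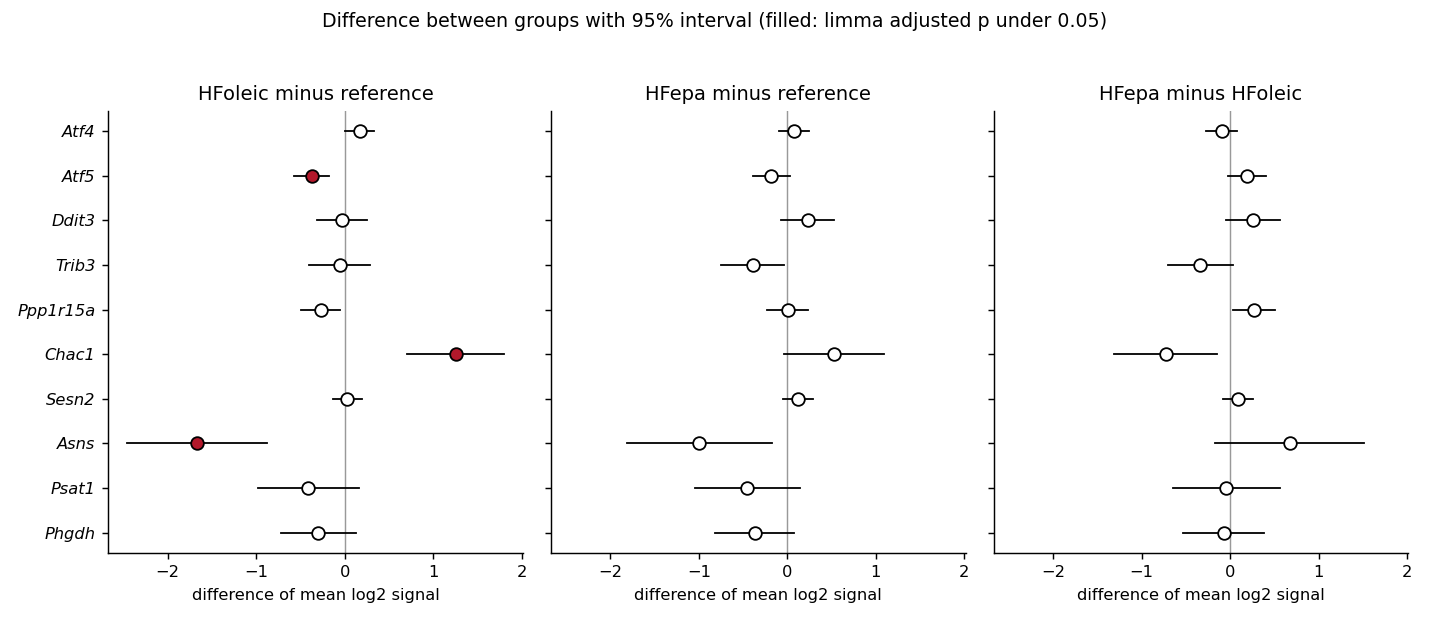
Difference of mean log2 signal (horizontal axes) for the 10 genes in the 3 comparisons, with 95% intervals; filled symbols have a limma adjusted p under 0.05. In HFoleic against reference, Chac1 (1.26), Atf5 (-0.37) and Asns (-1.67) were called, and in the other comparisons none was.

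Against the reference group, HFepa mice had 0 of the 10 genes called, beside 0.391% of all genes and, over probes, 0 of 14 beside 0.393%. At an unadjusted p under 0.05 there were 2 genes, Asns (-0.99) and Trib3 (-0.39). The HFepa differences of the genes called in HFoleic were 0.53 for Chac1, -0.99 for Asns and -0.18 for Atf5, beside 1.26, -1.67 and -0.37 in HFoleic. Both comparisons share the 9 reference mice, so these values are not independent of the HFoleic ones.

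The comparison of HFepa with HFoleic asks what the EPA lineage changed under the same diet. It had 0 of the 10 genes called, beside 0% of all genes and of all probes, with 2910 of 30003 probes at an unadjusted p under 0.05. Of the 10 genes, 2 had an unadjusted p under 0.05, Chac1 (-0.73) and Ppp1r15a (0.27, with 5 of 7 HFepa mice above the HFoleic mean). The intervals of this comparison were wide for the genes that varied most between mice. They allowed a difference of -0.17 to 1.52 for Asns and of -1.31 to -0.15 for Chac1, so no statement that the lineages acted alike can be drawn.

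The wider pathway is given from lists of related genes, also chosen with earlier results of these data known. Over all genes, 8.07% were called in HFoleic against reference, 4.52% higher and 3.55% lower. In HFepa against reference 0.391% were called, and between the high-fat groups 0%. Among 15 genes upstream of Atf4 (the eIF2 kinases, eIF2 and its exchange factor eIF2B), 1 was called in HFoleic, the eIF2B subunit Eif2b3 (-0.29, limma adjusted p 0.00873). Of the 3 tested Eif2b3 probes, 2 were called. The gene of PERK, Eif2ak3, was 0.35 higher and not called (adjusted p 0.0898). The median of the list was -0.0036, and in HFepa 0 were called.

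Of the other known targets of ATF4 in amino acid supply, most were not called in HFoleic, and their counts stand beside the 4.52% of all genes called higher and the 3.55% called lower. A list of 10 tested genes held serine, one-carbon and proline synthesis together with other steps, such as cysteine synthesis. Of these genes 2 were called lower, both from the other steps: Cth of cysteine synthesis (-0.80, limma adjusted p 0.00224) and the alanine aminotransferase Gpt2 (-0.70, 0.00413). Psph, the last step of serine synthesis, was the 1 called higher (0.36, 0.0207), and 7 were not called. Of 6 tested amino acid transporters, 2 were called lower, those of neutral amino acids Slc1a4 (-0.78, adjusted p 0.00129) and Slc1a5 (-0.77, 0.0451), and 4 were not called. For Slc1a4, 1 HFepa array had no value, its spot being an outlier, and was left out of that probe's fit. Of 13 aminoacyl-tRNA synthetases, Cars (0.35) and Wars (0.28) were called higher, Lars (-0.42) was called lower and 10 were not called, with a list median of -0.04. For Cars, 2 of the 3 tested probes were called. Of the 5 tested Eprs probes, 1 of the dimmer ones was called lower in HFoleic (-0.34, limma adjusted p 0.0295), and the brightest was not called (-0.18, 0.136). In HFepa none of the genes of these lists was called, beside 0.391% of all genes.

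Of 18 further stress targets and partners of ATF4, 4 were called higher and 2 lower in HFoleic. Over all genes these shares were 4.52% and 3.55%. The higher ones were the stress cytokine Gdf15 (1.48, limma adjusted p 0.0437), the lipoprotein receptor Vldlr (0.83, 0.0338), the ER-degradation factor Herpud1 (0.81, 0.00432) and the DNA damage gene Gadd45a (0.76, 0.0168). The lower ones were the fasting hormone Fgf21 (-1.07, 0.0296) and the tRNA exporter Xpot (-0.26, 0.0116). The list thus held large changes of both signs, with a median of 0.0023. In HFepa 0 genes of the list were called, beside 0.391% of all genes.

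The other arms of the unfolded protein response are run by ATF6 and XBP1, which raise the folding capacity of the ER. Of 17 ER chaperone and folding genes under these factors, 16 were called higher in HFoleic and 0 lower. Over all genes these shares were 4.52% and 3.55%. The 17 genes had a median of 0.67 and a range of 0.33 to 2.81. The largest difference was that of Derl3, a gene of ER-associated degradation, whose fit left out 2 arrays without a value. Among them were Hspa5, the chaperone BiP (0.99, limma adjusted p 0.00234), the disulfide isomerase Pdia6 (0.97, 0.000253) and Sdf2l1 (1.68, 0.00254), and Edem1 was not called (0.33, 0.130). Some called genes were not called on every tested probe: Sel1l (1 of 3), Dnajb11 (2 of 3) and Hyou1 (3 of 4). In HFepa 0 of the 17 were called, beside 0.391% of all genes, with a median of 0.21. Between the high-fat groups all 17 had lower means in HFepa, with a median of -0.46, and 0 were called, beside 0% of all genes. The share of these genes called in HFoleic was not tested against that of the 10 ATF4 genes, of which 1 was higher and 2 were lower.

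Genes of hepatic amino acid breakdown and the urea cycle were lower where they were called. In HFoleic 6 of 12 were called lower and 0 higher, beside 3.55% and 4.52% of all genes, with a list median of -0.50. The called genes were the aspartate aminotransferase Got1 (-1.56, limma adjusted p 0.000430), the urea cycle genes Asl (-1.10, 0.000683), Cps1 (-0.89, 0.00166) and Arg1 (-0.66, 0.00332), the serine dehydratase Sds (-0.96, 0.00633) and the tyrosine aminotransferase Tat (-0.63, 0.00858). Sds was called on 1 of its 2 tested probes. Got1 was also called in HFepa (-1.23, 0.0245), as the only gene of the 7 lists called there on its brightest probe. That was 1 of 91 tested genes, beside 0.391% of all genes. Of the 4 probes of the ER chaperone Hyou1, 1 of the dimmer ones was called in HFepa (0.999, adjusted p 0.0467), while the brightest gave 0.21 (adjusted p 0.608). In HFoleic the dimmer of the 2 tested Hal probes was called lower (-0.60, limma adjusted p 0.0144), while the brighter gave -0.10 (adjusted p 0.780).

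**Figure D5:**
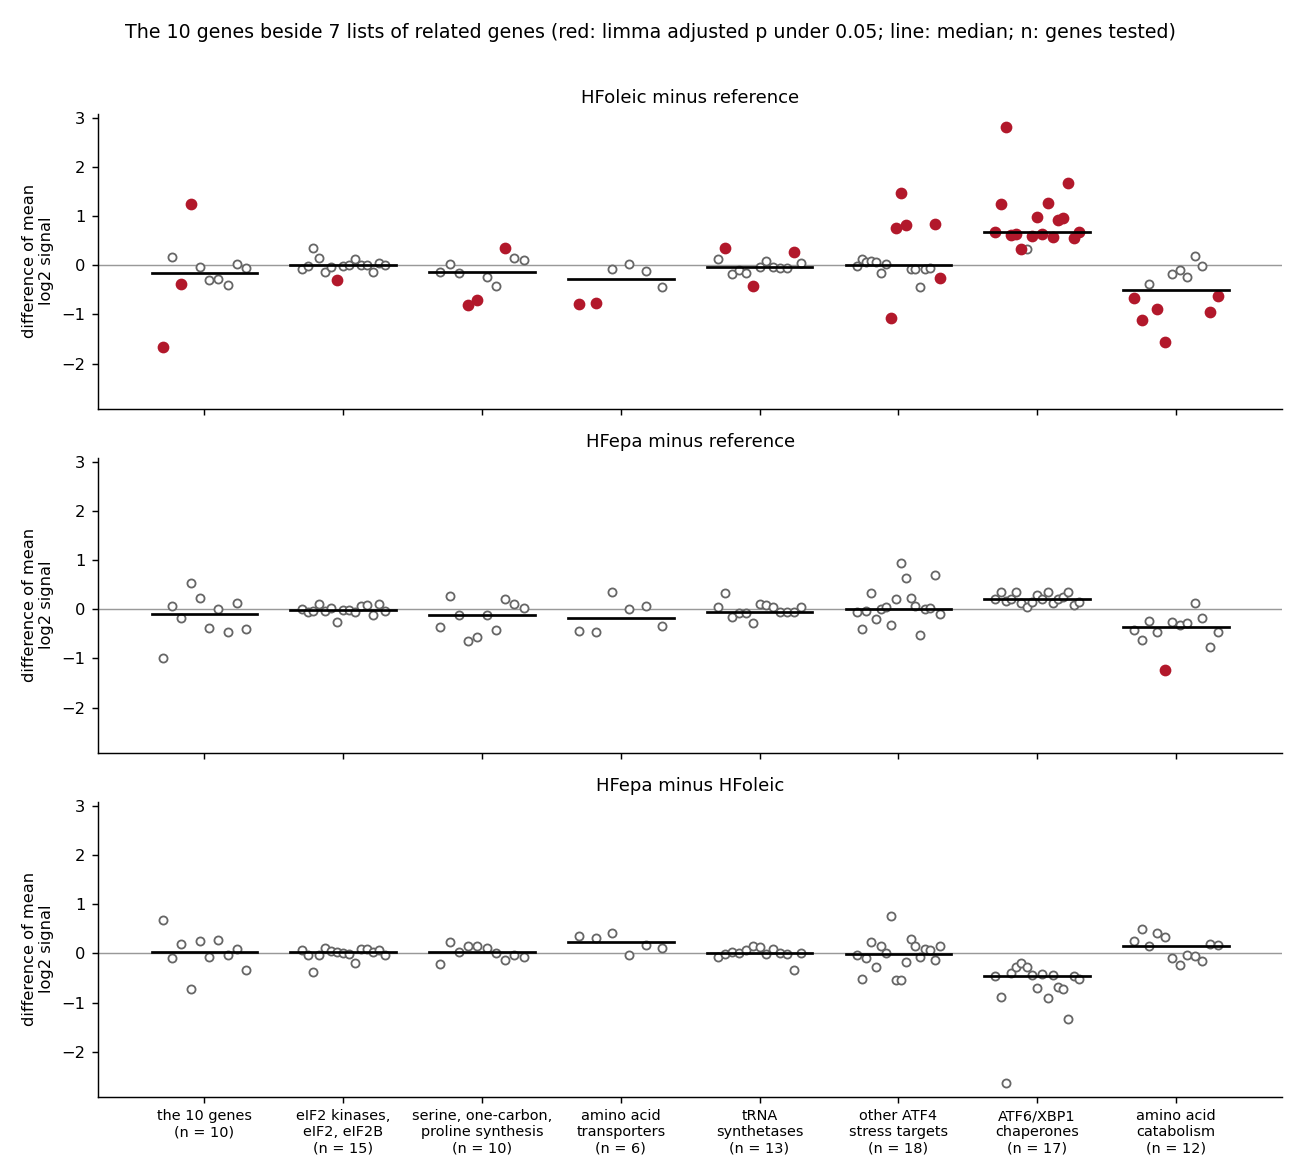
Difference of mean log2 signal (vertical axes) of each tested gene in the 10 ATF4 genes and in 7 lists of related genes, for the 3 comparisons; red points have a limma adjusted p under 0.05 and black lines are medians. In HFoleic against reference, 16 of 17 ATF6 and XBP1 chaperone genes are above 0 and called (median 0.67), the amino acid breakdown genes have a median of -0.50, and the 10 ATF4 genes are spread on both sides of 0 (median -0.16).

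Whether the other 9 genes varied with Asns from mouse to mouse was looked at after subtracting the mean of each group, over all 24 mice. Of 9 relations, none passed adjustment (smallest adjusted p 0.334, permutation test, two-sided, 100000 resamples within groups). The strongest by Pearson's r were those of Ddit3, read from its brighter probe (r = -0.42, permutation p 0.0607, Spearman's rho = -0.21, p 0.350), and Atf5 (r = 0.40, p 0.0742, rho = 0.30, p 0.182). Without the 2 mice farthest from the median of Asns these r were -0.25 and 0.22. For Ddit3 the r was -0.85 in the reference mice, -0.02 in HFoleic and 0.38 in HFepa, so it was carried by 1 group. Within slides it was -0.36, -0.36 and -0.75. By Spearman's rho the strongest were those of Sesn2 (rho = 0.37, permutation p 0.0856, r = 0.34, p 0.127) and Chac1 (rho = -0.37, p 0.0982, r = -0.28, p 0.200).

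Among 28080 probes with values on all arrays, the 5 named features whose signal followed that of Asns most closely over the 24 arrays were an unnamed transcript (NAP059691-1, r = 0.85), the ribosomal protein genes Rpl10a (r = 0.85) and Rpl39 (r = 0.80), the SMAD co-repressor Skil (r = 0.83) and Hgd, an enzyme of tyrosine breakdown (r = 0.83). The arrays share the difference between groups, so these values describe a common pattern of group and mouse and are given with no test. None of the other 9 genes was among them.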

How the data were processed

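For each array the authors deposited the scanner output of Agilent Feature Extraction (version 10.10.1.1). Its median, mean, background and processed signals are intensities that were not normalized between arrays, per the file headers, and a 0 or a 1 per spot says whether it was an outlier or was well above background. A table of quantile normalized log2 median signals was deposited as well, holding 32176 probes with 2550 cells left blank. Each column followed its own array's log2 median signals with a correlation of at least 0.9997, and column medians were 7.82 to 7.83. What filter preceded it is not given in the sources used here.

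Here the log2 median signals of a probe's spots were averaged after dropping outlier spots, of which an array had 134 to 627. A probe was tested if 75% or more of the arrays in any 1 group had it well above background (30003 probes), and arrays were then quantile normalized. Gene names, transcripts and probe coordinates (mm9, 1-based) were those of the scanner files. Groups and mouse numbers came from the sample labels. Limma (version 3.58.1, R 4.3.3) fitted a group-means model to all 24 arrays (lmFit, eBayes, two-sided contrasts). P-values were adjusted by Benjamini-Hochberg over all tested probes of a comparison, and an adjusted p under 0.05 was a call. The functions were tested on simulated data. The number of arrays limits the precision. The packages data.table (1.17.8), scipy (1.17.1), numpy (2.4.6), pandas (2.3.3) and matplotlib (3.10.9) were used, with Python 3.11.15.

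The 10 genes, the 7 pathway lists and the 9 cell marker lists were chosen with earlier results of these data known, so no list is independent support for a direction. All 10 genes are named. From a pathway list every gene called in any comparison on its brightest probe is named, up to 8 by the size of the HFoleic difference, and otherwise the 2 with the largest HFoleic difference. Eprs, Hal and Hyou1 are named also for a call on a dimmer probe, and Sel1l, Dnajb11 and Hyou1 for tested probes that were not called. Of the chaperone list fewer were named, and Edem1 and Eif2ak3 were named after their values were seen. Promoters were those of RefSeq, build GRCm38.p6, and were not compared with mm9 coordinates. Alternatives were another signal and scaling, normexp background correction, no filter on dim probes, the authors' log2 values, outlier spots kept, the t-test that the methods name (two-sided, with unequal variance chosen here), only the groups compared, the mouse number, slide or slide row as a block, each mouse left out, and other probes.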

Additional observations from a re-analysis of the deposited data

Results flagged for a closer look

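In 42 groups (14 tested probes in 3 groups), 5 had a mouse that stood far from the others of its group by the ratio of its gap to the range of the group, and chance alone gives about 1 in 20 groups. All values are log2 signals. For Ddit3, the reference mouse numbered 8 was the highest on the brighter probe, at 9.64 with the next at 8.86, and the HFoleic mouse numbered 4 was the lowest on the same probe, at 8.33 with the next at 8.61. For Ppp1r15a, the HFoleic mouse numbered 3 was the highest of its group, at 10.91 with the next at 10.53. For Sesn2, the reference mouse numbered 9 was the highest, at 10.15 with the next at 9.82. For Asns, the HFoleic mouse numbered 2 was the highest, at 8.79 with the next at 7.36, which is the mouse of its group with the lowest Chac1 (9.09).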

How the results depend on the processing

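The calls of Chac1 and Asns in HFoleic against reference held in all 10 alternatives read from the same probe and in all 24 fits with 1 mouse left out (changes of 1.20 to 1.40 and 1.11 to 1.39 for Chac1, and -2.02 to -1.49 and -1.91 to -1.50 for Asns, with highest adjusted p of 0.0337 and 0.0313 in the alternatives and 0.0126 and 0.0212 in the leave-outs). The call of Atf5 held in all 24 leave-outs on the brighter probe (-0.44 to -0.32) and was lost on the second probe without the HFoleic mouse numbered 8 (-0.42, adjusted p 0.0502). It was lost on both probes with the methods' t-test, under which 2 probes of the 10 genes were called in HFoleic in place of 4. With 1 mouse left out, 4 to 5 of these probes were called in HFoleic, 0 to 1 in HFepa against reference (1 without the reference mouse numbered 8) and 0 between the high-fat groups. Over all probes the leave-outs gave 1601 to 3059 calls for HFoleic, 0 to 496 for HFepa against reference and 0 to 14 between the high-fat groups. The 118 calls of HFepa against reference became 60 with the processed signal, 13 with only the 2 groups compared, 0 without the filter on dim probes and 0 with the methods' t-test, and the cause was not tested. The looser promoter motif matched 3 of the 10 genes in place of 1.

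Some differences that were not called changed sign. In HFoleic this was the case for the other probe of Ddit3 (0.36) and the other probes of Psat1 (0.21 in place of -0.41, and 0.020 on the probe below background), and with 1 mouse left out for Ddit3 (-0.11 to 0.088), Trib3 (-0.14 to 0.011) and Sesn2 (-0.011 to 0.081). In HFepa against reference it was the case for the other probes of Psat1 (0.021 in place of -0.45, and 0.10 below background) and for Ppp1r15a with the slide as a block (-0.0073) and in leave-outs (-0.048 to 0.068). Between the high-fat groups it was the case for the other probe of Atf4 (0.069), the probe of Psat1 below background (0.083), and in leave-outs for Psat1 (-0.090 to 0.035) and Phgdh (-0.14 to 0.023). The probes below background were read after the data were seen.

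Little likeness in expression was seen between mice with the same number in the labels. Of 22 same-numbered pairs, 3 had deviations from the group means that correlated above 0.1 (range -0.30 to 0.35). Of 44 looked at, 4 correlated best with their own number. These values cannot show whether the numbers follow a matching of mice, such as the matching for body weight that the paper states. With the replicate block, 1747 probes were called for HFoleic, 104 for HFepa against reference and 0 between the high-fat groups, and the Ppp1r15a difference of HFepa from reference was -0.025. The 9 relations with Asns stayed below the threshold in both alternatives tried.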
